A study of Mus musculus with 6 samples.

Results

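Iron storage, iron export, haem breakdown and iron sensing in neutrophils were followed through 10 genes, namely the ferritin light chain gene *Ftl1*, the ferritin heavy chain pseudogenes *Fth-ps2* and *Fth-ps3*, the iron transporters *Slc40a1* and *Slc11a1*, the haem oxygenase gene *Hmox1*, the metalloreductases *Steap3* and *Steap4*, and the iron regulatory proteins *Aco1* and *Ireb2*. They are 10 of the 38739 genes of the table. The 2 pseudogenes were chosen by the very large size of their values in these samples, so those values are described here without a test. The other 8 were chosen for their roles, but with earlier results of these data known, and were tested. Their p-values and counts of called genes are therefore not those of genes picked independently of the data. All 10 were above 0 in at least 1 sample, 9 were above 0 in every sample, and 8 had a mean of at least 1 over all samples.

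The values come from RNA sequencing of neutrophils of cGAS-/- mice on a C57BL/6J background by the methods (C57B/L6 in the labels), which lack the DNA sensor cyclic GMP-AMP synthase. By the methods of the study the mice were male and 8 weeks old, and the cells were washed out of the peritoneal cavity after an injection of thioglycolate. Then 3 samples received medium alone (untreated) and 3 received lipopolysaccharide (LPS, 500 ng/mL by the sample labels, while the methods name a lower dose), each for 2 h. Every sample carried the deletion and no wild-type sample was included, so nothing here says what the deletion does. Neither labels nor methods say whether the 3 samples of a group came from separate mice, and p-values measure only the spread between these samples, which may be technical. The deleted gene itself, *Cgas*, was listed at 0.203, 0.307 and 0.180 in the untreated and at 0.184, 0.0713 and 0.0286 in the LPS samples, levels near 0 that no wild-type sample allows to be ranked.

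Cells keep iron in ferritin, a hollow shell of heavy chains, which oxidise iron on entry, and light chains, which help to form the mineral core. The iron regulatory proteins encoded by *Aco1* and *Ireb2* bind a small RNA hairpin, the iron-responsive element, and in this way hold back translation of both ferritin chains and of ferroportin, the exporter encoded by *Slc40a1*, when iron is scarce. Haem oxygenase 1 frees iron from haem, and in phagocytes the NRAMP1 transporter encoded by *Slc11a1* moves iron and manganese out of the phagosome.

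Values are given as scaled TPM. TPM, the transcripts per 1000000, relates reads to transcript length within a sample. The deposited value of a gene is the average of the TPM of its annotated transcripts, divided by 1 factor per sample. A gene with many annotated transcripts is lowered by this averaging. *Fth-ps2* and *Fth-ps3* have 1 transcript each in the GENCODE M39 annotation used here, against 11 for *Ftl1*, 2 for *Hmox1* and 15 for *Slc40a1*. Levels of different genes therefore cannot be set against each other, while the ratio between samples within a gene is not affected. The log2 changes below were fitted on log2(value + 1), and the added 1 shrinks the change of genes with small values. For *Aco1* the change was 0.27, and 0.63 with 0.1 added in place of 1, while *Ftl1* was at 0.11 with both. Averaging thus also affects which genes pass a limit on the log2 change or on the mean value. Read numbers cannot be recovered from these values, and the depth of each sample is unknown.

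The heavy chain pseudogenes are intronless copies of the ferritin heavy chain messenger RNA. *Fth-ps3* is a row of 358 bases (chr8:87641785-87642142, GRCm39, plus strand) and *Fth-ps2* one of 516 bases (chr6:39630384-39630899, minus strand). The alignment of *Fth-ps2* to the first annotated transcript of the parent gene *Fth1* spans the whole coding sequence with 80.9% identity, 68 mismatches and 37 gap positions. *Fth-ps3* aligned from transcript base 426 to the last coding base with 88.2% identity, 32 mismatches and 10 gap positions. A stretch near the end of the coding sequence is shown because it holds the longest run that each of them has in common with *Fth1*. It covers coding positions 470 to 542 of *Fth1*, counted from 1 at the start codon, and 73 bases of each gene. Capitals mark bases that differ from *Fth1* in the pseudogenes, and in the *Fth1* line the bases at which either pseudogene differs.
Fth1 (chr19:9962227-9962299, plus strand): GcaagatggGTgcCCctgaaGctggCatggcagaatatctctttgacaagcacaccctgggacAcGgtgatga
Fth-ps2 (chr6:39630388-39630460, minus strand): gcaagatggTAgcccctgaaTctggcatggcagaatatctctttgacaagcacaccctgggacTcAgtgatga
Fth-ps3 (chr8:87642066-87642138, plus strand): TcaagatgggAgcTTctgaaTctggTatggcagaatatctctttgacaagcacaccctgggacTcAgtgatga

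In this stretch *Fth-ps2* has 5 substitutions and *Fth-ps3* has 8, of which 4 are the same in both (T480A, G490T, A533T and G535A, with the base of *Fth1* first). The longest run without a difference from *Fth1* was 42 bases in *Fth-ps2* and 37 bases in *Fth-ps3*. Kallisto, the program with which the authors quantified transcripts, assigns reads by their short words, and words of 31 bases were counted for that reason. Of the 486 such words of *Fth-ps2*, 12 (2.47%) also occur in a transcript of *Fth1*, and 95.5% occur in no other annotated gene. Of the 328 words of *Fth-ps3*, 10 (3.05%) occur in *Fth1* and 93.9% in no other gene, while the pseudogenes share 17 words with each other. Few 31-base words are thus common to the pseudogenes and *Fth1*. *Fth1* itself is not among the genes of the table, so it has no value here, and whether reads of *Fth1* were counted on these rows was not tested.

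The light chain family is different. *Ftl1* (chr7:45107367-45109308, minus strand) has 1530 words of 31 bases, of which 41.8% occur in no other gene, and *Ftl1-ps1* (chr13:74547778-74556113), which this annotation lists as protein-coding, has 49.6% of its own. The pseudogenes *Ftl1-ps2* and *Ftl2-ps* match the light chain transcript at 97.8% and 98.7% of positions and have 1.93% and 0% of their words to themselves. The values of these 4 rows are uncertain, because reads of near-identical stretches can be divided among them. Among the other members, between 93.1% (*Steap4*) and 100% (*Hmox1*) of the words were found in no other gene.

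The iron-responsive element itself was looked for on the sense strand as a C, a 5-base arm, the loop CAGTGN and a second 5-base arm that pairs with the first, with G-T pairs allowed. It is shown for the members and their relatives that hold it, because it is the sequence by which iron regulatory proteins recognise a message. Capitals mark the 6-base loop.
Ftl1 (chr7:45109203-45109231, minus strand): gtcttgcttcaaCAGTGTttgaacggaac
Slc40a1 (chr1:45964625-45964653, minus strand): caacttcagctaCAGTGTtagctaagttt
Fth1 (chr19:9960096-9960124, plus strand): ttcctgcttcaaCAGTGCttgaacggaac
Ftl1-ps1 (chr13:74554547-74554575, plus strand): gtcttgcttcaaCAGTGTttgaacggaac
Ftl1-ps2 (chr10:130428722-130428750, minus strand): tgtgtgcttcaaCAGTGTttgaatggaac
Ftl2-ps (chr4:125397905-125397933, plus strand): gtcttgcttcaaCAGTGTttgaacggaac

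In *Ftl1*, *Slc40a1* and *Fth1* the element lies in the 5′ untranslated region of the first annotated transcript. Between the last base of the loop and the start codon lie 158, 212 and 120 bases of that transcript. The printed bases of *Ftl1* are the same as those of *Ftl1-ps1* and *Ftl2-ps*. Of 19506 first annotated coding transcripts with a 5′ untranslated region, 23 (0.118%) hold the element there, and 27.2% hold the letters CAGTG of the loop alone. No match was found in the rows of *Fth-ps2* and *Fth-ps3* or in the 300 bases before them, which says only that these letters are not in that window. The 5′ untranslated regions of *Hmox1*, *Slc11a1*, *Steap3*, *Steap4*, *Ireb2* and *Aco1* held no match either.

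The largest values in the table belonged to the heavy chain pseudogenes, which ranked first and second by mean value. *Fth-ps3* was at 185936, 214782 and 153424 without LPS and at 56524, 68072 and 46481 with LPS. The lowest untreated sample was above the highest LPS sample, and the untreated mean (184714 ± 30697, SD, n = 3) was 3.24 times the LPS mean (57026 ± 10804). *Fth-ps2* was at 41588, 51207 and 31173 without and 12978, 17828 and 12355 with LPS, again with groups that did not overlap and with an untreated mean 2.87 times the LPS mean. On the log2(value + 1) scale this was a difference of -1.70 for *Fth-ps3* and -1.51 for *Fth-ps2*. Both pseudogenes have 1 transcript and TPM is per length, so averaging does not affect the ratio of these 2 rows. The value of *Fth-ps3* was between 3.76 and 4.92 times that of *Fth-ps2* in each of the 6 samples. Whether reads of *Fth1* were counted on either row was not tested, so this is a ratio of values and not of the RNA of the 2 pseudogenes. In a bulk sample fewer cells that contain an RNA and less of it per cell cannot be told apart.

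**Figure D1:**
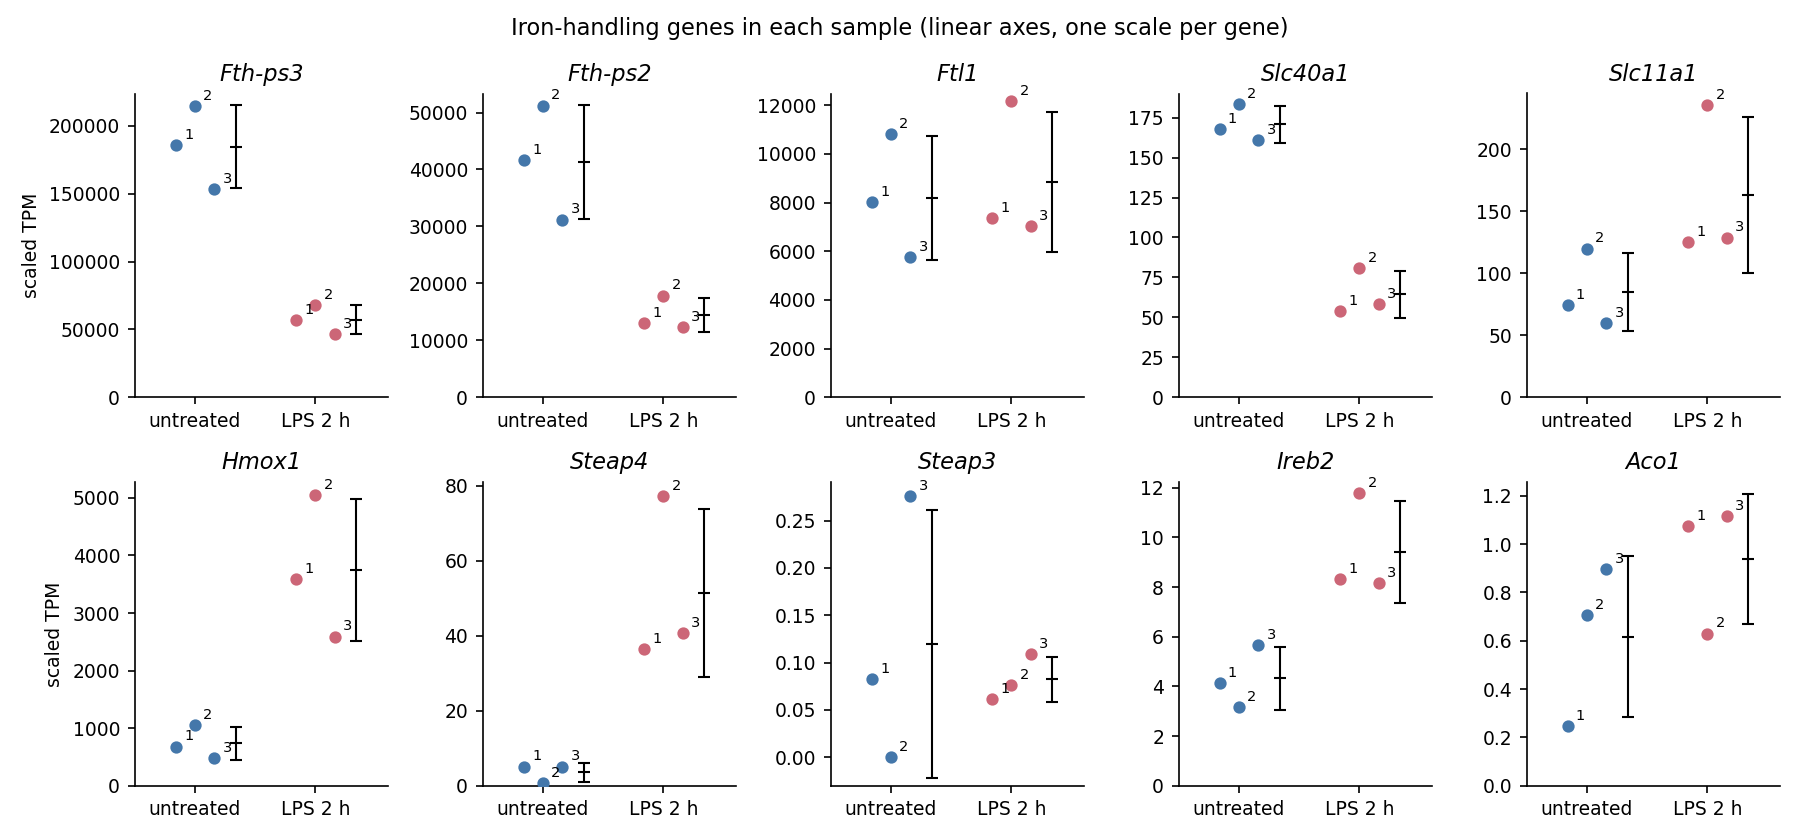
Scaled TPM (linear vertical axis, one scale per gene) of the 10 genes in the 3 untreated (blue) and 3 LPS (red) samples, numbered as in the sample titles, with the mean and SD of each group in black. *Fth-ps3*, *Fth-ps2* and *Slc40a1* have all LPS samples below all untreated samples, *Slc11a1*, *Hmox1*, *Steap4* and *Ireb2* have them all above, and *Ftl1*, *Steap3* and *Aco1* overlap.

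These 2 rows together held 31.9%, 40.4% and 30.6% of the summed value of the untreated samples and 17.1%, 18.4% and 14.5% of that of the LPS samples. All shares given here are of the deposited values, in which averaging lowers genes with many transcripts. Their size is therefore not a share of the RNA. All other pseudogenes together held 36.0%, 23.1% and 34.7% without and 21.8%, 13.3% and 22.4% with LPS, and the share of protein-coding genes was 21.0% to 28.3% against 49.7% to 58.9%. Of the 208 pseudogenes with a mean of at least 100, 177 had a lower mean with LPS, and the median of their log2 ratios was -1.42. Among 257 protein-coding genes at that level 171 had a higher mean with LPS, with a median of 0.59. The share of *Fth-ps2* and *Fth-ps3* within all pseudogenes was 46.8% to 63.6% without and 39.3% to 58.1% with LPS, ranges that overlap.

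**Figure D2:**
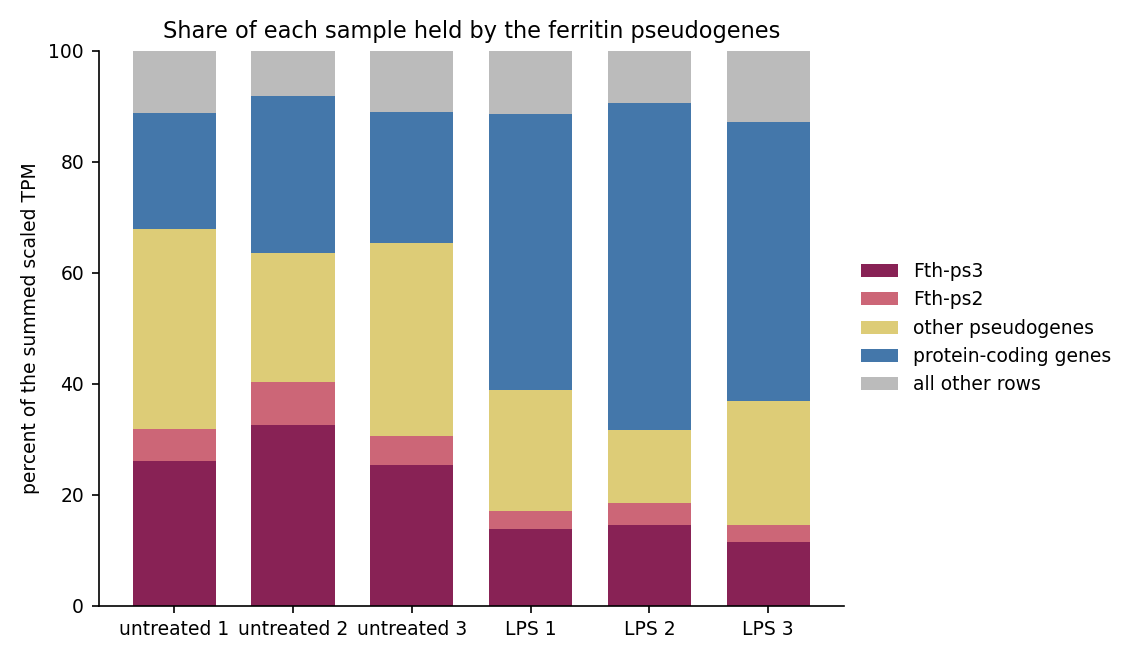
Percent of the summed scaled TPM of each sample (vertical axis, one bar per sample) held by *Fth-ps3*, *Fth-ps2*, the other pseudogenes, protein-coding genes and all other rows. The 2 ferritin rows take 30.6% to 40.4% of the untreated bars and 14.5% to 18.4% of the LPS bars. The bars are shares of values averaged over transcripts and not shares of the RNA.

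TPM of a sample share a fixed total, so the share of rows of this size enters the level of every other row. Rescaling every sample to the same sum of protein-coding genes moved the difference of *Fth-ps3* from -1.70 to -2.20 and that of *Fth-ps2* from -1.51 to -2.02. The median change of genes with a mean of at least 1 moved at the same time from 0.126 to -0.224. Relative to that median, *Fth-ps3* was at -1.82 in the deposited scaling and at -1.98 in the other, and *Fth-ps2* at -1.64 and -1.79.

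*Ftl1*, which encodes the functional light chain, did not pass the test. It was at 8011, 10813 and 5746 in the untreated and at 7349, 12155 and 7022 in the LPS samples. The groups overlapped throughout, and sample number 2 was the highest of both. Their means were 8190 ± 2538 and 8842 ± 2874 (SD, n = 3), a log2 change of 0.11 ± 0.39 (SE), with a 95% interval from -0.83 to 1.05 that holds changes of either sign (limma, adjusted p = 0.889). With equal protein-coding sums the estimate was -0.39, so its direction depends on the scaling. The summed value of *Fth-ps2* and *Fth-ps3* divided by that of *Ftl1* was 28.4, 24.6 and 32.1 without LPS and 9.46, 7.07 and 8.38 with LPS. No scaling of a whole sample can move this quotient, and because of the averaging over transcripts its change between samples can be read but not its size.

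*Ftl1-ps1* was at 1749, 1177 and 574 without and 255, 531 and 299 with LPS, with no overlap (log2 change -1.62, limma, adjusted p = 0.185, which does not pass). The value of *Ftl1*, an average over 11 transcripts, divided by that of *Ftl1-ps1*, an average over 3, was 4.58, 9.19 and 10.0 without LPS and 28.8, 22.9 and 23.5 with LPS, and again the change of this quotient can be read but not its size. *Ftl1-ps2* (4.60, 6.59 and 3.88 against 3.15, 9.35 and 3.88) and *Ftl2-ps* (11.04, 35.2 and 17.9 against 5.63, 22.2 and 13.3) overlapped between groups, as *Ftl1* did.

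Of the 8 tested members, *Hmox1* and *Steap4* rose and none fell at the limits of the study, an unadjusted p under 0.01 and a log2 change beyond 2. Those limits were passed upward by 1.69% and downward by 1.31% of the 23049 genes tested. Among the 9403 genes with a mean of at least 1 the shares were 4.14% and 3.20%. At a Benjamini-Hochberg adjusted p under 0.05 none of the 8 was called (0.894% of all genes were called higher and 0.946% lower), while 4 of the 8 had an unadjusted p under 0.05 in the limma fit, 3 of them higher and 1 lower (10.3% of all genes were higher and 6.66% lower at that limit). In 4 members every LPS sample lay above every untreated sample, as in 13.1% of all genes, and in 1 member every LPS sample lay below, as in 9.75%.

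*Hmox1* (chr8:75820241-75827217, plus strand), the inducible haem oxygenase that opens the haem ring and releases iron, carbon monoxide and biliverdin, was at 677, 1048 and 485 without LPS and at 3588, 5047 and 2592 with LPS. The lowest LPS sample was above the highest untreated sample, and sample number 2 was again the highest of each group. The LPS mean (3742 ± 1235, SD, n = 3) was 5.08 times the untreated mean (737 ± 286). The log2 change was 2.36 ± 0.42 (SE), with an unadjusted p of 0.00129 and an adjusted p of 0.0543 (limma). With equal protein-coding sums it was 1.86 (adjusted p = 0.0475), under the limit on the change, and the call was lost there. Relative to the median change of genes with a mean of at least 1 it was 2.24 and 2.08 in the deposited and the other scaling. Over all alternatives the adjusted p of *Hmox1* ran from 0.0149 to 0.182.

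*Steap4* (chr5:8010260-8032214, plus strand), a metalloreductase that reduces ferric iron and copper at membranes, was low without LPS at 5.09, 0.717 and 5.10 and reached 36.4, 77.1 and 40.8 with LPS. No LPS sample came near an untreated one. The LPS mean (51.4 ± 22.3, SD, n = 3) was 14.1 times the untreated mean (3.64 ± 2.53), and the log2 change was 3.63 ± 0.62 (SE, unadjusted p = 0.0010, adjusted p = 0.0514, limma). Its call held with equal protein-coding sums, where the change was 3.18, and over all alternatives its adjusted p ran from 0.0168 to 0.182. Its relative *Steap3* (chr1:120118487-120200435, minus strand), known as the reductase of transferrin-borne iron in erythroid cells, was listed at 0.0825, 0 and 0.276 without and 0.0618, 0.0762 and 0.109 with LPS. Values this close to 0 give no fold, and the fitted change was -0.04 with a 95% interval from -0.27 to 0.19 (limma, adjusted p = 0.823).

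*Slc40a1* (chr1:45947211-45965683, minus strand), the gene of ferroportin, which is the known iron exporter of animal cells, was the member lower with LPS apart from the pseudogenes. It was at 168, 183 and 161 in the untreated and at 53.9, 81.0 and 58.1 in the LPS samples. Replicates lay close together and the groups were far apart, with means of 171 ± 11.5 and 64.3 ± 14.6 (SD, n = 3) and an untreated mean 2.65 times the LPS mean. The log2 change was -1.41 ± 0.28 (SE), with a 95% interval from -2.11 to -0.72, an unadjusted p of 0.00239 and an adjusted p of 0.0700 (limma). It passed the limit on p and not the limit on the change, so it was not called. With equal protein-coding sums the change was -1.91 (adjusted p = 0.0236), also short of that limit, and its adjusted p ran from 0.0206 to 0.261 over all alternatives.

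*Slc11a1* (chr1:74414303-74425448, plus strand), the phagosomal transporter, was at 74.4, 120 and 59.4 without and 125, 236 and 129 with LPS. The lowest LPS sample was just above the highest untreated sample. The LPS mean (163 ± 63.0, SD, n = 3) was 1.93 times the untreated mean (84.6 ± 31.4), with a log2 change of 0.94 ± 0.42 (SE) and an adjusted p of 0.320 (limma), so it did not pass. Its 95% interval ran from -0.08 to 1.95.

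**Figure D3:**
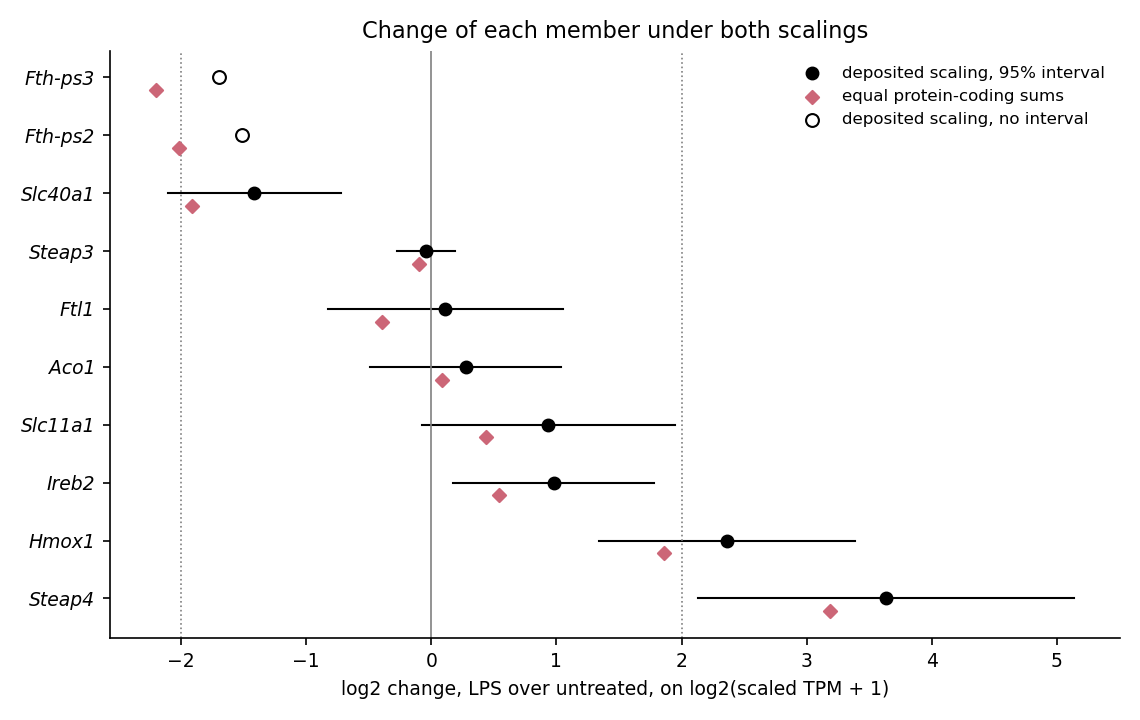
Log2 change with LPS (horizontal axis, on log2(scaled TPM + 1)) of each member, with 95% intervals from limma as lines for the 8 tested genes, open circles for the 2 pseudogenes that were not tested, and red diamonds for samples rescaled to equal protein-coding sums. Dotted lines mark the limits of 2 and -2. Of the tested genes *Hmox1* at 2.36 and *Steap4* at 3.63 lie beyond the upper line, and with equal protein-coding sums *Steap4* alone does.

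The values of the iron sensors were small, which may reflect the averaging over many transcripts. *Ireb2* (chr9:54770970-54820011, plus strand), which encodes iron regulatory protein 2, was at 4.14, 3.16 and 5.66 without and 8.31, 11.8 and 8.15 with LPS. All LPS samples were above all untreated samples, with means of 9.42 ± 2.06 and 4.32 ± 1.26 (SD, n = 3). The log2 change was 0.98 ± 0.33 (SE), with a 95% interval from 0.18 to 1.78 and an adjusted p of 0.204 (limma), so it did not pass. *Aco1* (chr4:40142998-40199010, plus strand), the cytosolic aconitase that becomes iron regulatory protein 1 when it lacks its iron-sulfur cluster, was at 0.248, 0.707 and 0.897 without and 1.07, 0.630 and 1.12 with LPS. These groups overlapped, and the change was 0.27 ± 0.31 (SE, limma, adjusted p = 0.641). *Aco1* has 26 annotated transcripts and *Ireb2* has 13, so the order of their levels says nothing about the amounts of both proteins' messages.

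Ratios between genes of a sample are free of any factor applied to that sample. Per 1000 of *Ftl1*, *Hmox1* was at 84.5, 96.9 and 84.3 in the untreated and at 488, 415 and 369 in the LPS samples. *Slc40a1* was at 21.0, 16.96 and 28.003 against 7.34, 6.66 and 8.28 on the same scale, and *Slc11a1* at 9.29, 11.1 and 10.3 against 16.99, 19.4 and 18.3. For each of these 3 genes the groups did not overlap, nor did they for *Steap4* (0.0663 to 0.888 against 4.96 to 6.34), while *Ireb2* overlapped (0.293 to 0.986 against 0.970 to 1.16). The exact two-sided permutation test over samples gave p = 0.10 for the 4 genes without overlap, which is the smallest value that 3 against 3 samples allow, and p = 0.20 for *Ireb2*. For *Slc11a1* the spread within groups was small on this scale (10.2 ± 0.900 and 18.2 ± 1.20, SD, n = 3), and sample number 2 had been the highest of each group in scaled TPM for *Slc11a1* and *Ftl1* alike. For *Fth-ps3* the ratios were 23211, 19863 and 26702 against 7691, 5600 and 6619, given without a test.

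**Figure D4:**
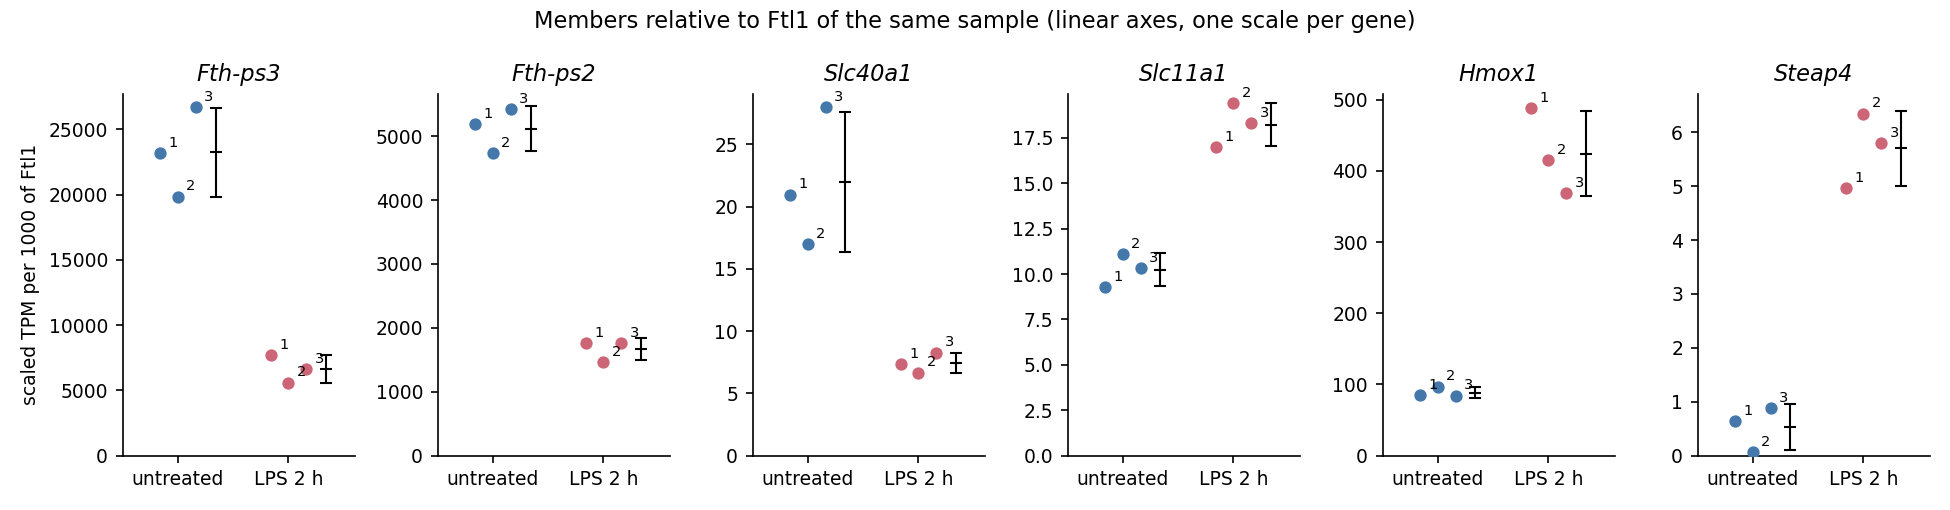
Scaled TPM per 1000 of *Ftl1* of the same sample (linear vertical axis, one scale per gene) in the 3 untreated (blue) and 3 LPS (red) samples, with mean and SD in black. *Hmox1*, *Slc11a1* and *Steap4* are higher in every LPS sample and *Slc40a1*, *Fth-ps2* and *Fth-ps3* lower.

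The cell type named by the labels was checked against its markers. Of 14 neutrophil markers 12 were in the table (*Retnlg* and *Ly6g* were not), and all 12 were above 0 in every sample. Their sum, led by *S100a9*, ran from 9661 to 28451 without and from 16037 to 54625 with LPS. In *Cxcr2* (39.4, 120 and 100 against 7.10, 23.6 and 8.69), *Csf3r* and *Ltf* every LPS sample lay below every untreated sample, as in 9.75% of all genes tested. In no neutrophil marker did every LPS sample lie above. Of 16 macrophage markers 12 were in the table (*Adgre1*, *Csf1r*, *Gata6* and *Vsig4* were not). Of those 12 markers 9 were above 0 in every sample and none was at 0 throughout. Their sum, led by *Cd68*, which neutrophils also express, ran from 178 to 292 without and from 330 to 450 with LPS. Of these 12 markers, 4 had every LPS sample above every untreated sample (*Cd68*, *C1qb*, *Spic* and *Cd5l*), beside 13.1% of all genes tested. *Mrc1* had every LPS sample below (2.50, 1.17 and 2.11 against 1.01, 0.611 and 0.978), beside 9.75% of all genes, and 7 overlapped, among them *Apoe*, *Marco* and *C1qa*. *Spic*, a factor of iron-recycling macrophages, was at 0.134, 0.174 and 0.124 against 5.16, 1.86 and 2.65, and the complement gene *C1qb* at 2.85, 0.712 and 4.75 against 23.9, 17.3 and 18.05. Iron-recycling macrophages are known for both *Hmox1* and *Slc40a1*, and here *Hmox1* was higher with LPS and *Slc40a1* lower. The part of these cells in either result was not tested. Of 11 erythroid markers 9 were in the table, of which 5 were above 0 in every sample and *Car1* was at 0 throughout. Their sum spread from 21.6 to 5629 without and from 165 to 4651 with LPS, ranges that overlap. The spread followed the sample number in *Hbb-bs*, at 49.8, 12.2 and 880 without and 162, 47.7 and 1295 with LPS. The sum of 4 B cell markers, led by *Cd79a*, ran from 142 to 542 without and from 66.7 to 236 with LPS, which also overlap. Of 5 monocyte markers 3 were in the table, and their sum ran from 4.61 to 13.6 without and from 1.84 to 3.81 with LPS, without overlap. In *Ccr2* and *Cx3cr1* every LPS sample lay below every untreated sample, as in 9.75% of all genes, while *F13a1* overlapped. Sums of eosinophil, mast cell, T cell, platelet and mesothelial cell markers reached at most 49.1 in a sample, and each overlapped between groups. All these sums are of values averaged over transcripts, so their size does not rank cell types. The part of these cells in the results was not tested.

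A wider set of 85 genes of iron and haem handling, in 7 lists by role, was read from the same fit. These lists too were chosen with earlier results of these data known. In all 61 were in the table and tested, and 40 had a mean of at least 1. At the limits of the study 4 rose, namely *Steap4*, *Hmox1*, *Nfe2l2* and *Keap1*, and 0 fell, beside 1.69% higher and 1.31% lower of all genes tested and 4.14% and 3.20% of those with a mean of at least 1. At an adjusted p under 0.05 there were 0 in either direction, and at an unadjusted p under 0.05 limma gave 14 higher and 4 lower, beside 10.3% and 6.66% of all genes tested. The groups did not overlap in 17 genes with LPS above and in 5 with LPS below, beside 13.1% and 9.75% of all genes, and the share below (8.20%) is under that of all genes. The median log2 change over the 61 genes was 0.133, against 0.013 over all genes tested, and with equal protein-coding sums 0.0433 against -0.0436.

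Haem breakdown and transport had 3 called genes among its 11 tested, beside 1.69% of all genes called higher (4.14% of those with a mean of at least 1), and a median change of 0.707. Besides *Hmox1* these were *Nfe2l2*, which encodes NRF2, an activator of *Hmox1* and other genes of the oxidant response, and *Keap1*, whose product holds NRF2 back. *Nfe2l2* rose from 141, 131 and 41.0 to 494, 524 and 505, a log2 change of 2.46 (limma, adjusted p = 0.0790). *Keap1* rose from 0.856, 4.88 and 1.68 to 13.5, 18.6 and 15.97, a log2 change of 2.45 (limma, adjusted p = 0.0684). Both calls were lost without LPS sample 3, which left 2 called genes in the 7 lists, and with equal protein-coding sums the change of *Nfe2l2* was 1.96, short of the limit. In the same list the haemoglobin-binding protein gene *Hp* was at 23.3, 42.0 and 27.0 against 53.0, 555 and 82.6, and the biliverdin reductase gene *Blvrb* at 31.8, 16.2 and 1.23 against 54.6, 59.5 and 42.7. Neither passed (limma, adjusted p = 0.305 and 0.317), although the groups did not overlap in either gene. The haem transporter gene *Flvcr1* stayed between 5.27 and 5.73 without and between 4.29 and 5.596 with LPS.

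Among 11 tested genes of iron uptake and reduction *Steap4* alone was called, and the median change was 0.0618. *Lcn2*, whose product binds the siderophores with which bacteria take up iron, was at 77.0, 1284 and 94.7 against 879, 4887 and 1190. Untreated sample 2 lay above LPS samples 1 and 3, and the change of 3.02 did not pass (limma, unadjusted p = 0.0509, adjusted p = 0.298). LPS was higher within each sample number, by 11.4, 3.81 and 12.6 times, and with the replicate number as a block *Lcn2* passed the limits of the study (unadjusted p = 0.00150, adjusted p = 0.102). The transferrin gene *Trf* was at 7.71, 10.5 and 13.6 without and at 3.08, 4.16 and 5.14 with LPS, without overlap, and its change of -1.17 did not pass either (limma, adjusted p = 0.152).

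None of the 9 tested genes of iron export and its control was called, and their median change was 0.0936. *Hamp*, the gene of hepcidin, the hormone that removes ferroportin from the cell surface, was listed at 0, 1.01 and 0 without and at 2.24, 7.68 and 1.247 with LPS, low values whose change of 1.66 did not pass (limma, adjusted p = 0.241). *Bmp2*, whose product acts on hepcidin in the liver, overlapped between groups (0.0900 to 1.59 against 0 to 1.96). Of the 2 storage genes tested besides the pseudogenes, *Ftl1* is described above and *Pcbp1*, an iron chaperone that delivers iron to ferritin, was at 262, 140 and 120 against 264, 201.2 and 255 (log2 change 0.54, limma, adjusted p = 0.547).

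Of the 5 sensing genes none was called and all 5 estimates were above 0. *Fbxl5*, which marks iron regulatory protein 2 for degradation when iron is plentiful, was at 11.2, 29.9 and 17.3 against 15.5, 63.6 and 15.7, and *Cul1*, the scaffold of its ubiquitin ligase, at 31.96, 3.95 and 2.45 against 7.81, 9.48 and 6.95. Both overlapped between groups. With equal protein-coding sums the estimates of *Fbxl5* and *Cul1* were -0.02 and -0.31.

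Haem synthesis held no called gene among 6 tested (median 0.148). Its first enzyme, *Alas1*, was at 105, 209 and 101 without and at 96.4, 127 and 96.2 with LPS. The 17 tested genes of iron-sulfur cluster assembly held none either, with 4 higher and 2 lower at an unadjusted p under 0.05, beside 10.3% and 6.66% of all genes, and a median of 0.375 (-0.00774 with equal protein-coding sums). The assembly scaffold *Iscu* was at 7.16, 39.8 and 19.8 against 6.84, 6.72 and 9.95, which overlap. *Ciao2a*, of the cytosolic assembly machinery, was at 80.8, 83.7 and 34.7 against 27.7, 20.6 and 23.7, without overlap and with a change of -1.34 that did not pass (limma, adjusted p = 0.180).

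**Figure D5:**
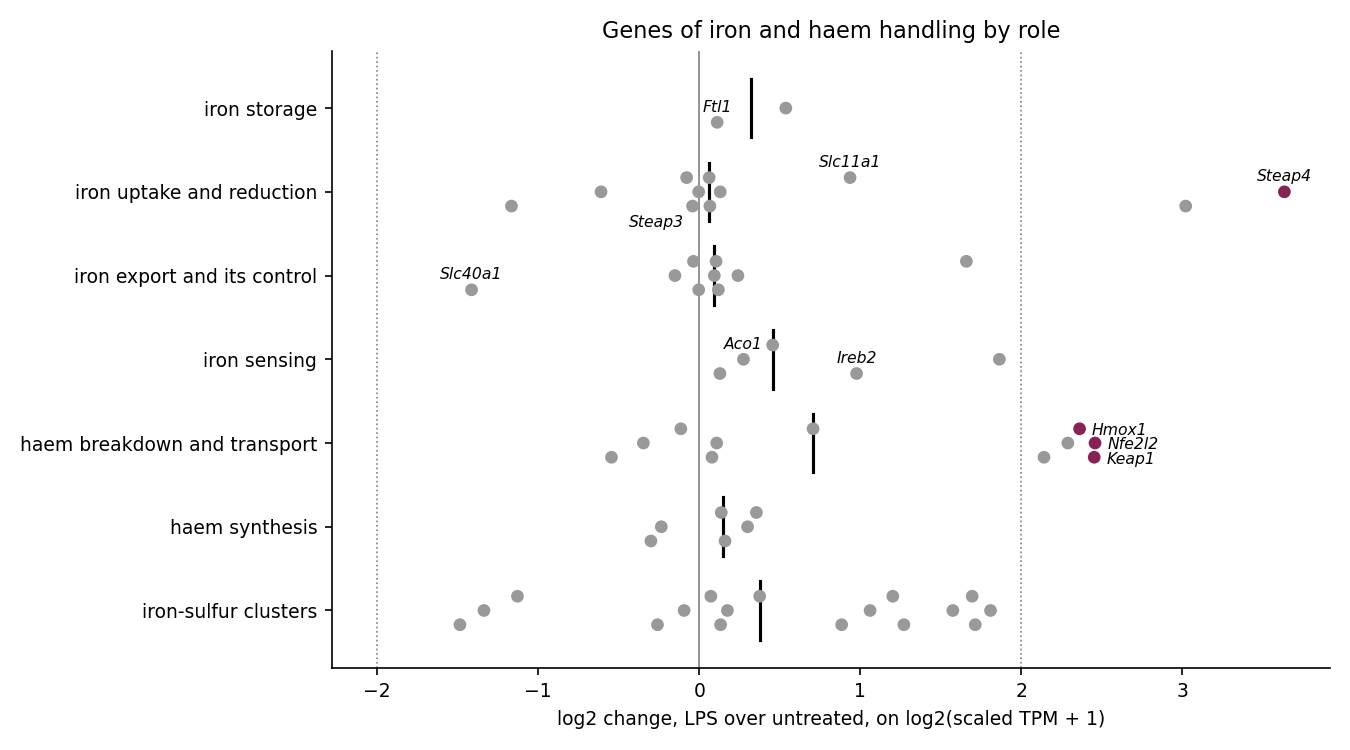
Log2 change with LPS (horizontal axis, on log2(scaled TPM + 1)) of the 61 tested genes of iron and haem handling in 7 lists (rows), one point per gene, with called genes in purple, others in grey, and the median of each list as a black line. The 4 called genes, *Steap4*, *Hmox1*, *Nfe2l2* and *Keap1*, lie beyond the dotted line at 2, and *Slc40a1* at -1.41 is the lowest in its list.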

How the data were processed

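RNA of 6 samples (3 untreated, 3 LPS) was measured, and groups were taken from the treatment labels. The authors trimmed reads with fastp, aligned them to GRCm39 with STAR (the labels also name mm10), estimated transcript levels with Kallisto and scaled these in edgeR, and versions of these tools and the annotation release are not given in the sources used here. The deposited values, named normalized counts, were taken as TPM averaged over transcripts and divided by 1 factor per sample, because multiplying single-transcript values by factors of 0.875, 0.861, 1, 1.10, 0.904 and 1.12 returned numbers of 6 digits in 97.8% to 98.5% of cases. The table holds rows for part of the genome. In all 36582 of 38739 genes matched GENCODE M39, and 15690 at 0 in every sample were left out.

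The remaining 23049 were fitted with limma 3.58.1 in R 4.3.3 (lmFit, eBayes with trend, two-sided) on log2(value + 1), without covariates. Tests that need counts were not run. In simulated data with independent normal noise, 156 of 200 genes changed by 3 on the log2 scale were recovered, with 20 false calls among 23049 genes. The 200 were drawn only from genes with a mean log2(value + 1) above 3 and an SD above 0.05. Recovery at lower levels, where *Ireb2*, *Aco1* and *Steap3* lie, was not tested. Lists were described by counts and medians without a set test. Members and lists were chosen with earlier results of these data known. Named genes were all members, other ferritin rows and, in each list, called genes and otherwise up to 3 with the highest mean. Alternatives were pseudocounts of 0.1 and 5, a filter on a mean of 1, all genes kept, quantile normalization, median centring, equal protein-coding sums, no trend, a replicate block, an adjusted p under 0.05 and each sample left out, and, chosen after seeing the data, removal of the authors' factor. Sequences were read from GRCm39 and GENCODE M39 with Python 3.11.15 and Biopython 1.88. Figures were drawn with matplotlib 3.10.9.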

Additional observations from a re-analysis of the deposited data

How the results depend on the processing

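The numbers of genes called higher and lower (389 and 301) became 856 and 493 with a pseudocount of 0.1, 129 and 168 with a pseudocount of 5, and 220 and 522 with equal protein-coding sums, and 206 were called higher at an adjusted p under 0.05. Members called higher (2) became 1 with equal protein-coding sums and 0 at an adjusted p under 0.05, and iron genes called higher (4) became 2 and 0. *Hmox1* lost its call under the same settings and *Steap4* at an adjusted p under 0.05. *Ftl1* changed sign with equal protein-coding sums (-0.39). Quantile normalization brought *Fth-ps2* to -0.52 and *Fth-ps3* to 0, the latter by construction, as it is the top row of every sample. With the authors' factor removed the counts were 467 and 249, 2 members and 5 iron genes were called higher, and *Hmox1* changed by 2.55.

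With each sample left out in turn, 260 to 463 genes were called higher and 263 to 394 lower, 2 members higher each time, and 2 to 5 iron genes (2 without LPS sample 3). *Hmox1* ran from 2.10 to 2.65, *Steap4* from 3.02 to 3.94, *Slc40a1* from -1.59 to -1.30, *Ftl1* from -0.14 (without LPS sample 2; -0.12 without untreated sample 3) to 0.34, *Steap3* from -0.12 to 0.057 (without untreated sample 3), *Fth-ps3* from -1.84 to -1.56 and *Fth-ps2* from -1.70 to -1.34. Samples of the same number deviated together by correlations of 0.0935, 0.199 and 0.0835 across all genes tested and of 0.187, 0.353 and 0.227 across those with a geometric mean of value + 1 of at least 11 (genes are not independent replicates). Each sample correlated best with its own number in both, a hint from the data and not from the design. Over all genes 2 of the 3 values are under 0.1 and the labels name no shared source, so the numbers were not taken as pairing, a choice that the higher genes alone would turn. The haemoglobin genes *Hbb-bs*, *Hbb-bt*, *Hba-a1* and *Hba-a2* were each highest in sample number 3 of both groups, a further hint from the data. With the replicate block 387 genes were called higher and 303 lower, 2 members and 5 iron genes higher, with *Lcn2* as the added call, and *Hmox1* had an adjusted p of 0.0692. Depth is unknown. The averaged values of *Steap3* and *Aco1* are small beside the 1 added before taking logarithms, so no change was read from them.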

Other observations

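The 3 genes whose profile over the 6 samples was most like that of *Fth-ps3*, among 2747 genes with a mean of at least 10 and by the root mean square difference of gene-centred log2 values, were *Hmga1b* (0.0672), the processed pseudogene *Gm6682* (0.0730) and *Smad3* (0.103). *Hmga1b* was at 381 to 564 without and 115 to 179 with LPS. The closest to *Ftl1* were *Flcn* (0.0671), *Vamp8* (0.0849) and *Arpc3* (0.105). These are descriptions over 6 samples, with no test.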
